A study of Mus musculus with 6 samples.

Results

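The proteasome genes described here are the protein-coding genes whose mouse symbol begins with Psma, Psmb, Psmc, Psmd, Psme, Psmf or Psmg. The prefixes found 50 of the 17193 genes listed for RNA sequencing of astrocytes, and 48 of the 50 had a mean of at least 1 FPKM (fragments scaled by transcript length and by the mapped fragments of the library) and were tested. By role they were 15 genes of the standard core particle, 17 genes of the regulatory cap, the 3 immunoproteasome genes Psmb8, Psmb9 and Psmb10, and 15 genes of assembly chaperones, other activators and the rest. Psmc3ip, a meiotic recombination factor, met the rule by its symbol only, and Psme2b is a near copy of Psme2.

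The astrocytes came from the brains of wild-type C57BL/6 mice aged 3 months and were collected with magnetic beads against the astrocyte surface antigen ACSA-2. The Quinpirole group had received quinpirole, an agonist of D2-type dopamine receptors, and the Mock group is named only as Mock in the labels, with 3 libraries in each group. Neither the dose nor the time of quinpirole is given for these mice, and nothing states whether a library held cells of 1 mouse or of several, so a p-value measures the spread between these libraries.

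The proteasome is a barrel-shaped protease that degrades proteins tagged with ubiquitin. Its core particle stacks rings of alpha subunits, which form the gate, around rings of beta subunits, of which Psmb5, Psmb6 and Psmb7 carry the active sites. The cap recognises ubiquitin chains, removes them, and unfolds and feeds in the substrate with a ring of ATPases. Under interferon signalling, cells make Psmb8, Psmb9 and Psmb10 in place of the constitutive active subunits, which changes the peptides that reach MHC class I molecules. The transcription factor Nfe2l1 is known to raise proteasome genes when proteasome activity falls, and Nfe2l2, better known as Nrf2, acts through antioxidant response elements that both factors can bind.

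Because Nrf2-type elements are of interest in this study, the promoters were searched for TGACNNNGC, the core of the antioxidant response element, on both strands. RefSeq windows of 250 bases before to 50 after the start (GRCm38.p6) were found for 42 of the 50 genes. TGACNNNGC stood in 6 of the 42 (14.3%), against 14.8% of the 17492 protein-coding genes with a window. The 6 were Psmb5, Psmb6, Psmc6, Psmd12, Psmd9 and Psme4, while none of the 3 immunoproteasome windows held it. The windows of Psmb5 and Psmb6 are printed because they are the active-site genes that held the letters, that of Psmb8 as the immunoproteasome counterpart of Psmb5, and that of Psmd14 as the gene with the smallest p. Capitals mark TGACNNNGC, which began 47 bases before the start in Psmb5 and 9 bases before it in Psmb6. Each runs 5′ to 3′ on the strand of its gene, Psmb5 at chr14:54617946-54618245 (minus strand), Psmb6 at chr11:70525107-70525406 (plus), Psmb8 at chr17:34197945-34198244 (plus) and Psmd14 at chr2:61711444-61711743 (plus).
Psmb5: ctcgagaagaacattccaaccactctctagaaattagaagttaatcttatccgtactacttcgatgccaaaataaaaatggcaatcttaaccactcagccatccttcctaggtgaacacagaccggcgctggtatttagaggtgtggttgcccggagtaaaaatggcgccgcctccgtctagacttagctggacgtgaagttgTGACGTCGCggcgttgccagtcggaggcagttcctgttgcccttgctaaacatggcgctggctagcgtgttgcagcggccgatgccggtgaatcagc
Psmb6: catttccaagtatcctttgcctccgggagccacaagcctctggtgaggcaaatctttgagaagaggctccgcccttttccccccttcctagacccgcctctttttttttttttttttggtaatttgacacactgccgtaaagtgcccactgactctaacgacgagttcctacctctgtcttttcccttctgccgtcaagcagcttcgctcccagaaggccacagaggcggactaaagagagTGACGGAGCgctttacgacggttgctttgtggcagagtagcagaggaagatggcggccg
Psmb8: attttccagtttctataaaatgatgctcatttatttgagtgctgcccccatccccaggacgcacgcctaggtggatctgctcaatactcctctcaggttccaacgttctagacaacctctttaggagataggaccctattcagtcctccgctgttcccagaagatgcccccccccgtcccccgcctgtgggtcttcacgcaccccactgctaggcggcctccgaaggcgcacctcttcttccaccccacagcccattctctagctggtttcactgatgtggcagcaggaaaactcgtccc
Psmd14: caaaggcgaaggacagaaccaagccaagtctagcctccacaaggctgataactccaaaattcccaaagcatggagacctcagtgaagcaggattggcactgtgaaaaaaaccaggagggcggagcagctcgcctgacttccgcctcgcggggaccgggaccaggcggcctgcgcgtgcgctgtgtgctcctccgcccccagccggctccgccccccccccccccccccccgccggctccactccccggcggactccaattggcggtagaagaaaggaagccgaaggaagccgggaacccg
An interferon-type repeat, GAAA followed by any 2 bases and GAAA, stood in 5 of the 42 windows (11.9%; Psmb3, Psmd4, Psmd9, Psme1 and Psmg4) against 3.94% of all windows, and in 0 of the 3 immunoproteasome windows. The windows of Psmb8 and Psmb9 lie wholly inside the annotated bounds of their genes, so bases before those bounds were not searched for any motif. With only 3 windows, their counts cannot be compared with the shares of all windows. The CCAAT-box letters ATTGG stood in 35.7% of the windows and in 42.3% of all. None of the 42 windows held both TGACNNNGC and ATTGG, and that of Psmd9 held TGACNNNGC and the repeat. All were searched on both strands. These matches describe letters only and say nothing of binding.

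Proteasome genes were higher in the Quinpirole libraries by a small amount. Of the 48 tested genes 14 rose and 0 fell (limma on log2(FPKM + 1), Benjamini-Hochberg adjusted p under 0.05 over all 12255 tested genes), where 5.74% of all tested genes rose and 5.18% fell. At an unadjusted p under 0.05 the count was 28, all of them higher, against 17.3% of all tested genes in that direction. The log2 fold change was above 0 for 45 of the 48 genes (53.8% of all tested genes), with a median of 0.17 and a range from -0.10 to 0.28, where the median over all tested genes was 0.02. All 3 Quinpirole libraries lay above all 3 Mock libraries for 29 of the 48 genes (20.0% of all tested genes) and below them for 0 (16.9%). Quinpirole 2 was the highest of the 6 libraries for 31 of the 48 genes, and the lowest was Mock 1 for 24 and Mock 2 for 19. The replicates were close, with a median coefficient of variation of 4.76% in Mock and 4.41% in Quinpirole, and the means of the 14 genes rose by 14.2% (Psmb4) to 21.9% (Psmd8).

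**Figure D1:**
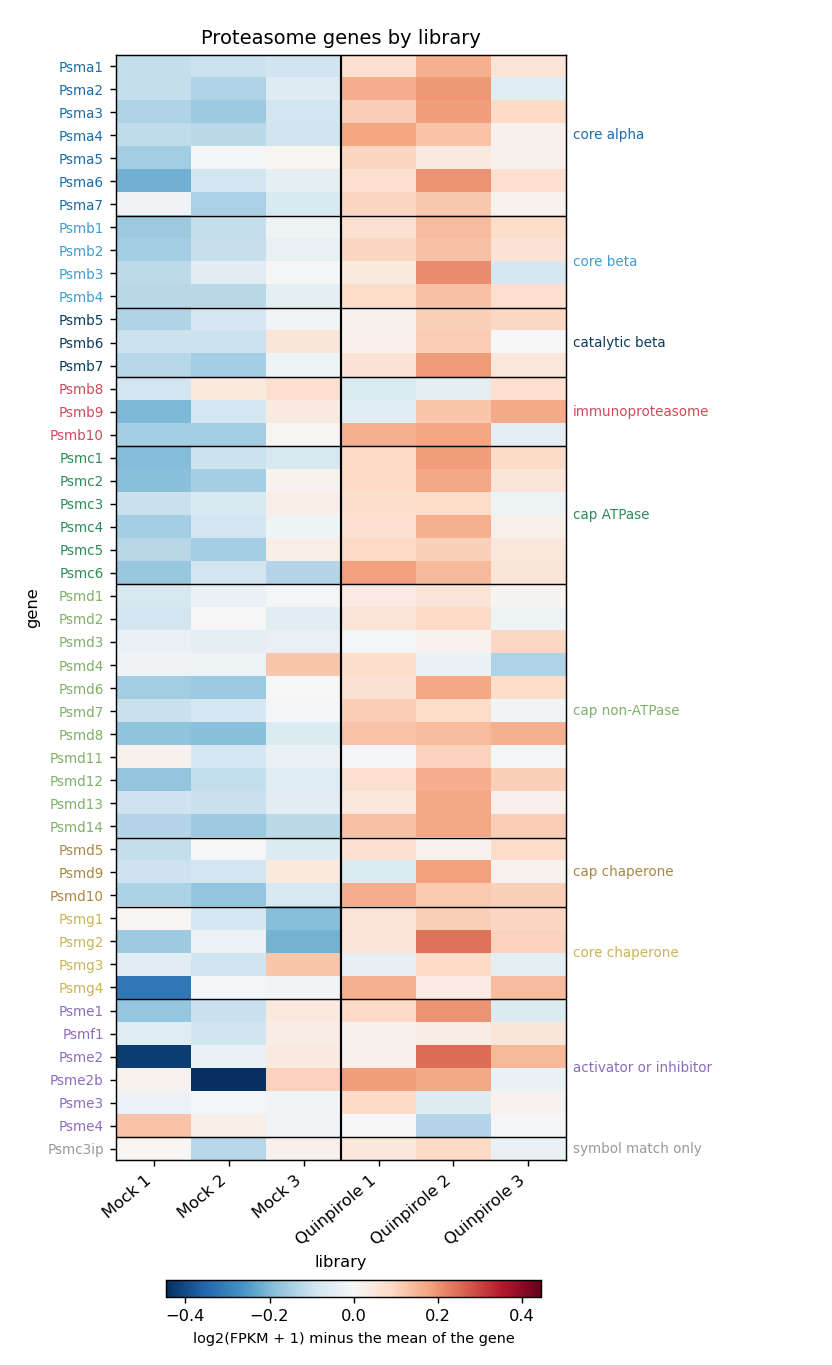
Each row is 1 of the 48 tested proteasome genes, grouped by role, and each column 1 library; colour gives log2(FPKM + 1) minus the mean of the gene over the 6 libraries. The Quinpirole columns are mostly red and the Mock columns mostly blue, Quinpirole 2 is the highest library for 31 genes, and Psmb8, Psmd4 and Psme4 do not follow the others.

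The number of calls depended on single libraries. None of the 14 was made when Mock 1, Mock 2, Quinpirole 1 or Quinpirole 2 was left out. In these fits 0.0327%, 0.00816%, 0.0326% and 0.0734% of all tested genes rose. At an unadjusted p under 0.05 (limma, either direction) the counts were 23, 25, 25 and 24 of the 48 genes. The shares of all tested genes at that threshold were 24.9%, 23.5%, 27.5% and 24.2%. Without Quinpirole 3 there were 4 calls (0.701% of all tested genes) and without Mock 3 there were 16 (5.29%). Psmc6 and Psmd14 were called in 2 of these 6 fits and the other 12 in 1. With each library left out in turn, 44 to 46 of the 48 genes still had a log2 fold change above 0.

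Of the 14 tested core particle genes 7 rose (5.74% of all tested genes), and the median log2 fold change was 0.19 (range 0.09 to 0.25). For 12 genes every Quinpirole library lay above Mock (20.0% of all tested genes). Levels ran from 28.1 to 136 FPKM, and the median over the 14 genes was 80.6, 79.0 and 85.1 FPKM in Mock 1 to 3 and 94.6, 100 and 88.5 in Quinpirole 1 to 3. The order of these medians left every Quinpirole library above every Mock library.

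All 7 tested alpha subunit genes were higher in every Quinpirole library, and Psma1, Psma3, Psma4 and Psma6 passed the test. Psma3 (chr12:70974621-70996347, plus strand) was at 25.3, 24.8 and 26.3 FPKM in Mock and at 30.2, 31.9 and 29.7 in Quinpirole, a log2 fold change of 0.25 ± 0.04 (SE) with an adjusted p of 0.0251 (limma). Psma5 had the largest p of the group, with 38.0, 42.1 and 42.7 FPKM in Mock against 45.3, 43.6 and 42.9 in Quinpirole (0.10 ± 0.05, adjusted p = 0.226, limma). Its highest Mock library and lowest Quinpirole library nearly touched. Psma1 (0.19), Psma4 (0.21) and Psma6 (0.23) rose by similar amounts on the log2 scale, while Psma2 (0.20, adjusted p = 0.0895) and Psma7 (0.15, adjusted p = 0.0731) did not pass. Psma8, a testis-specific alpha subunit, stayed at or below 0.0646 FPKM in every library and was not tested.

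Among the structural beta subunits, which carry no active site, Psmb1, Psmb2 and Psmb4 rose by 0.20, 0.19 and 0.19 on the log2 scale. Psmb4 gave the smallest p, with 123, 123 and 130 FPKM in Mock against 142, 147 and 141 in Quinpirole (0.19 ± 0.04, adjusted p = 0.0303, limma). Psmb3 overlapped between groups, at 94.7, 99.5 and 102 FPKM in Mock and 106, 119 and 97.3 in Quinpirole (0.12 ± 0.07, adjusted p = 0.309). Quinpirole 3 was the library of Psmb3 that lay among the Mock values.

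None of the 3 constitutive active-site genes passed the test (limma, 2 of 3 at an unadjusted p under 0.05). Psmb5, the chymotrypsin-like subunit, was at 123, 128 and 134 FPKM in Mock and 137, 145 and 144 in Quinpirole, without overlap (0.15 ± 0.04, adjusted p = 0.0711). Psmb7, the trypsin-like subunit, was at 81.3, 79.8 and 87.5 FPKM in Mock and 92.9, 102 and 92.0 in Quinpirole, also without overlap (0.20 ± 0.05, adjusted p = 0.0525). Psmb6, the caspase-like subunit, overlapped, at 127, 127 and 141 FPKM in Mock and 138, 147 and 136 in Quinpirole (0.09 ± 0.05, adjusted p = 0.288). Psmb11, the subunit of the thymus-specific proteasome, stayed at or below 0.0211 FPKM in every library and was not tested. Of the words of 50 bases in the Psmb5 transcript, 57.1% also occur in other genes such as the pseudogene Psmb5-ps, so its reads may be shared.

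The immunoproteasome genes were expressed at a lower level, and none was called. Psmb8, which replaces Psmb5, was at 11.1, 12.2 and 12.5 FPKM in Mock and at 11.2, 11.5 and 12.5 in Quinpirole, with a log2 fold change of -0.02 ± 0.06 (95% interval -0.17 to 0.13, adjusted p = 0.855, limma). The 2 groups overlapped over most of their range. Psmb9, which replaces Psmb6, was at 2.47, 2.78 and 3.10 FPKM in Mock and 2.85, 3.35 and 3.49 in Quinpirole (0.16 ± 0.09, interval -0.06 to 0.37, adjusted p = 0.277). Psmb10, which replaces Psmb7, was at 21.9, 21.9 and 24.6 FPKM in Mock and 27.4, 27.7 and 23.7 in Quinpirole (0.20 ± 0.07, interval 0.02 to 0.37, adjusted p = 0.119). Quinpirole 3 was the library of Psmb10 that fell below the highest Mock value, and Psmb10 was the only one of the 3 at an unadjusted p under 0.05. Psmb8 (chr17:34197721-34201454) and Psmb9 (chr17:34181987-34187764) lie on chromosome 17, and Psmb9 overlaps Tap1 on the opposite strand, where reads cannot be told apart unless strand was counted, which is not stated.

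**Figure D2:**
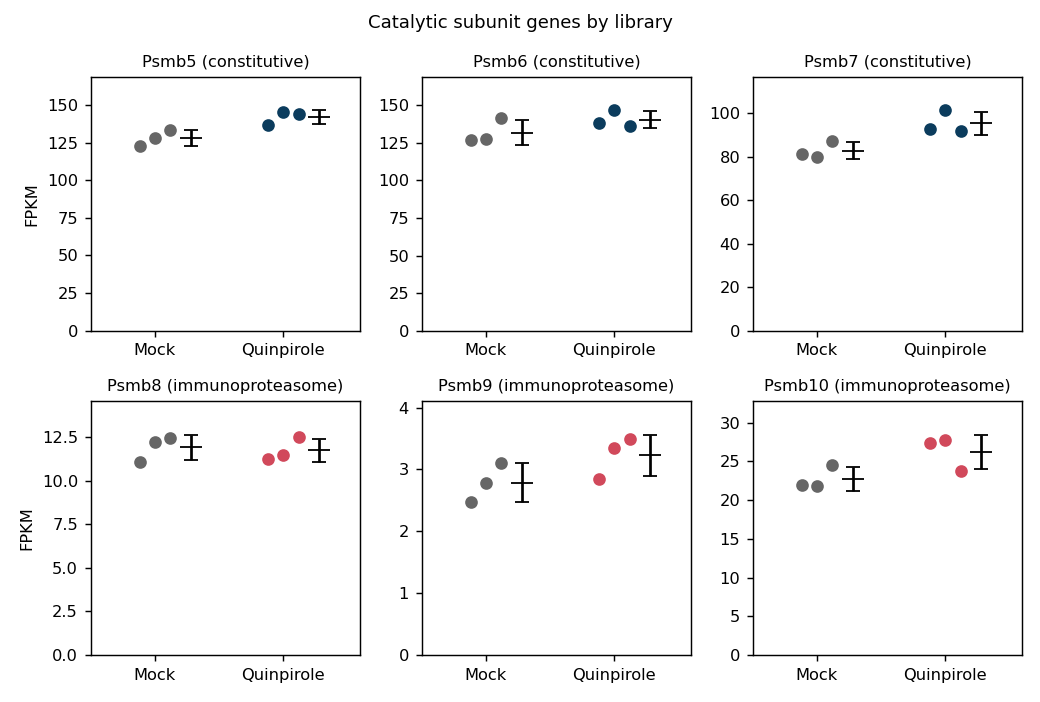
FPKM of the 3 constitutive active-site genes (upper row) and of the immunoproteasome gene that replaces each (lower row); points are the 3 libraries of a group and bars the mean ± SD (n = 3). Psmb5 and Psmb7 do not overlap between groups, whereas Psmb6, Psmb8, Psmb9 and Psmb10 do.

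The level of each immunoproteasome gene was set against that of the subunit it replaces, within each library. Psmb8 was 9.01, 9.52 and 9.31% of Psmb5 in Mock and 8.23, 7.88 and 8.66% in Quinpirole (9.28% ± 0.255 against 8.26% ± 0.391, SD, n = 3). Every Quinpirole library was lower, and the exact two-sided permutation p of 0.1 is the smallest that 3 against 3 libraries can give (0.3 after adjustment over the 3 ratios). The log2 difference of -0.17 shrank to -0.06 under quantile normalization and to -0.08 under length correction, and in both the groups overlapped (exact permutation p = 0.2). Psmb9 was 2.11% ± 0.144 of Psmb6 in Mock and 2.30% ± 0.2525 in Quinpirole (SD, n = 3; exact permutation p = 0.4, adjusted 0.6), a log2 difference of 0.12 that was 0.27 under quantile normalization, 0.06 without Mock 1 and 0.04 without Quinpirole 3. Psmb10 was 27.5% ± 0.559 of Psmb7 in Mock and 27.5% ± 1.84 in Quinpirole (SD, n = 3; exact permutation p = 1). No ratio could have passed 0.05 in this design. As a group the 3 genes had a median log2 fold change of 0.16, the same to 2 decimals as the cap. With a pseudocount of 0.1 the medians were 0.203 for these genes, 0.196 for the core and 0.166 for the cap. The means of Psmb9 and Psmb10 rose by 15.8% and 15.3%, and that of Psmb8 changed by -1.5%. Called higher were 0 of 3, against 7 of 14 in the core and 5.74% of all tested genes. Every Quinpirole library lay above Mock for 0 of 3, against 12 of 14 in the core and 20.0% of all tested genes. The core and immunoproteasome changes were not tested against each other beyond these ratios.

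The cap rose in 6 of its 17 genes (5.74% of all tested genes), with a median log2 fold change of 0.16 (range -0.06 to 0.28). For 12 genes every Quinpirole library lay above Mock (20.0% of all tested genes). Mean levels ran from 25.9 to 128 FPKM. The largest changes were of subunits of the lid: Psmd14, the deubiquitinase that removes ubiquitin chains from substrates, and Psmd8. Psmd14 (chr2:61711694-61800376, plus strand) was at 36.4, 35.6 and 36.7 FPKM in Mock and 43.9, 45.2 and 43.2 in Quinpirole, 21.8% higher in the mean (0.28 ± 0.04, adjusted p = 0.0225, limma). Psmd8 (chr7:29174188-29180701, minus strand) was at 111, 110 and 120 FPKM in Mock and 137, 139 and 140 in Quinpirole (0.28 ± 0.04, adjusted p = 0.0225, limma). In both genes the gap between the groups was wider than the spread within either.

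The lid subunits Psmd6 (0.21) and Psmd12 (0.23) also rose on the log2 scale. Psmd4, a ubiquitin receptor, had the largest p of the non-ATPases, with 74.3, 74.0 and 81.9 FPKM in Mock and 79.4, 73.6 and 68.2 in Quinpirole (-0.06 ± 0.06, adjusted p = 0.579, limma). The scaffold and receptor subunits Psmd1 and Psmd2 and the lid subunits Psmd3, Psmd7, Psmd11 and Psmd13 lay between 0.06 and 0.16 on the log2 scale and did not pass. Of the 6 ATPases, the motor of the cap, Psmc1 (0.24) and Psmc6 rose. Psmc6 went from 27.7, 29.5 and 28.5 FPKM in Mock to 35.6, 34.6 and 32.4 in Quinpirole (0.25 ± 0.05, adjusted p = 0.0274, limma). Psmc3 had the largest p of the ATPases, at 104, 106 and 114 FPKM in Mock and 118, 118 and 110 in Quinpirole (0.09 ± 0.05, adjusted p = 0.232), while Psmc2, Psmc4 and Psmc5 lay between 0.16 and 0.21 without overlap and did not pass.

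Of the chaperones that assemble the cap, Psmd10, also known as gankyrin, rose from 11.0, 10.7 and 11.6 FPKM in Mock to 13.8, 13.3 and 13.3 in Quinpirole (0.26 ± 0.05, adjusted p = 0.0278, limma). Psmd9 overlapped, with 13.4, 13.5 and 14.8 FPKM in Mock and 13.7, 16.5 and 14.6 in Quinpirole (0.09 ± 0.07, adjusted p = 0.440), and Psmd5 was 0.11 higher on the log2 scale (adjusted p = 0.127). None of the 4 core chaperones Psmg1 to Psmg4 passed, although 3 of them were at an unadjusted p under 0.05 (limma). Psmg2 came closest, at 12.5, 13.9 and 12.1 FPKM in Mock and 14.8, 16.9 and 15.3 in Quinpirole (0.27 ± 0.07, adjusted p = 0.0521). Psmg3 was the farthest, at 13.7, 13.3 and 15.6 FPKM in Mock and 13.8, 15.2 and 13.8 in Quinpirole (0.01 ± 0.07, adjusted p = 0.956). Psmg1 and Psmg4 were 0.17 and 0.22 higher on the log2 scale, without overlap.

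None of the 6 genes of the alternative activators and the inhibitor was called, and none had an unadjusted p under 0.05 (limma). Psme2, which forms the interferon-inducible activator PA28 with Psme1, was at 30.4, 40.2 and 42.3 FPKM in Mock and 41.7, 49.0 and 45.6 in Quinpirole (0.28 ± 0.12, adjusted p = 0.166). Mock 1 stood apart from the other Mock libraries of Psme2, and 59.3% of its transcript lay in words shared with Psme2b and another gene. Psme3, the nuclear PA28 gamma, was at 26.6, 26.9 and 26.9 FPKM in Mock and 28.9, 26.0 and 27.5 in Quinpirole (0.03 ± 0.05, adjusted p = 0.681). Psme1, Psme2b, Psme4 and the inhibitor Psmf1 ranged from -0.10 to 0.22 on the log2 scale. Psmc3ip was at 6.53, 5.87 and 6.61 FPKM in Mock and 6.75, 6.97 and 6.35 in Quinpirole (0.07 ± 0.06, adjusted p = 0.499), and without it and Psme2b the count was 14 of 46.

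**Figure D3:**
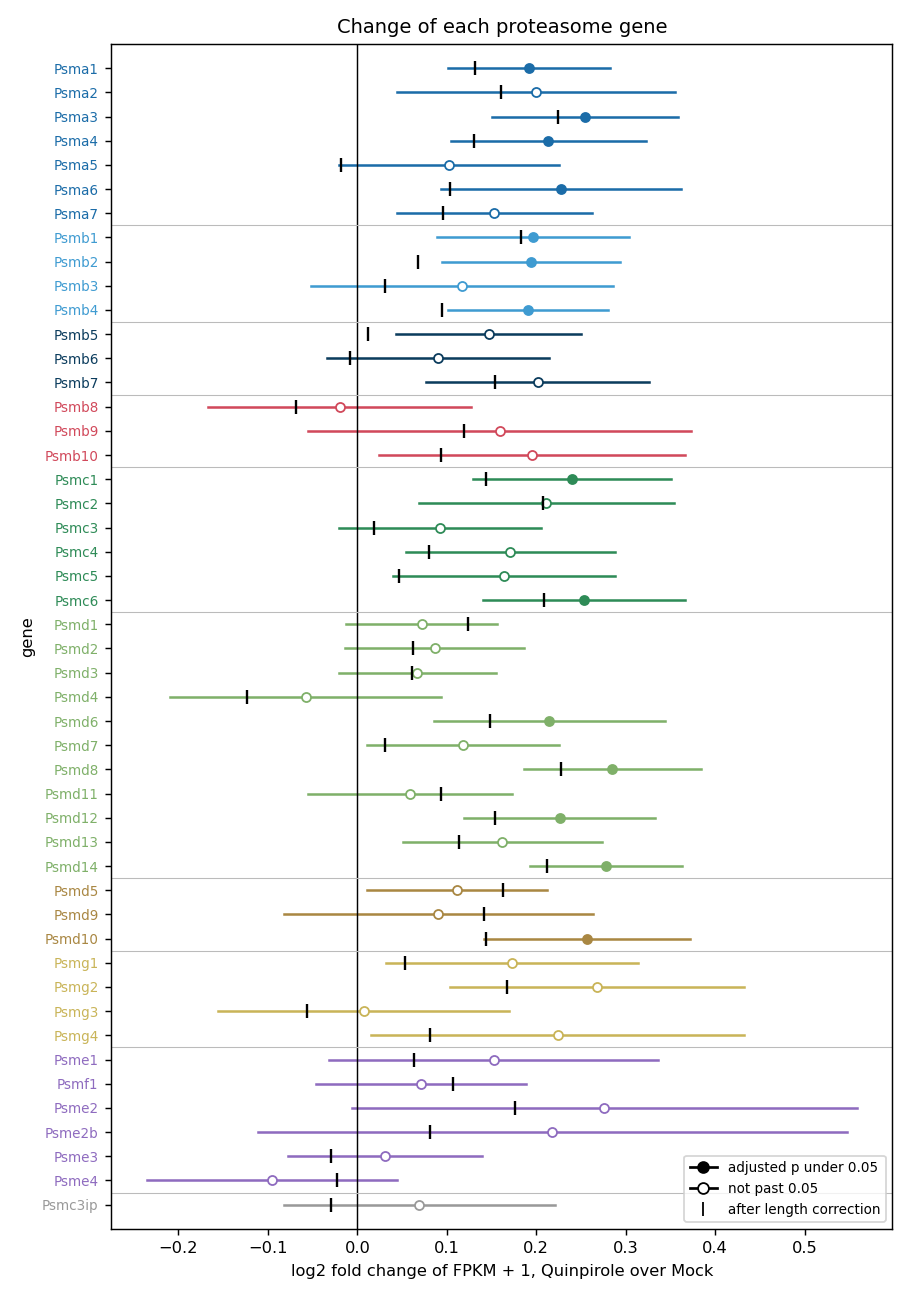
Log2 fold change of FPKM + 1 (Quinpirole over Mock) of each tested proteasome gene with its 95% interval, coloured by role; filled points passed the adjusted p of 0.05, open points did not, and black ticks show the value after correction for gene length. The points of 45 of 48 genes lie above 0, and most ticks lie nearer to 0 than their points.

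The change moved with gene length in these libraries. Across the 12223 tested genes with a known length, the log2 fold change fell with exonic length (Spearman's rho -0.475 across genes, which are not independent replicates), from a median of 0.12 in the 2445 shortest genes to -0.11 in the 2445 longest. Proteasome genes are short, with a median exonic length of 2804 bases against 4521 over all tested genes, and 39 of the 48 were shorter than that median. Within the 48 genes the rho was -0.35. With the length trend subtracted in each library, the median over the 48 genes was 0.10, 40 of 48 were above 0, and 3 rose: Psma3, Psmd8 and Psmd14, 6.25% of the 48 against 2.09% of all tested genes. The core median was then 0.10, the cap median 0.11 and the immunoproteasome median 0.09.

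**Figure D4:**
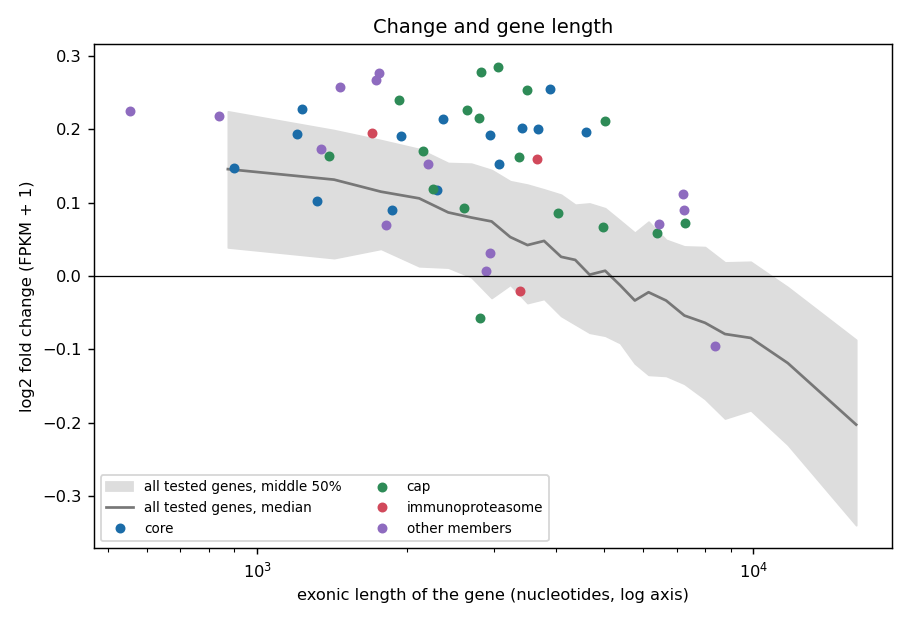
Log2 fold change of each tested proteasome gene against its exonic length in nucleotides (log axis), over the median (line) and middle 50% (band) of all tested genes in 24 bins of length. The line falls from above 0 at short genes to below 0 at long genes, and most of the core and cap points lie above it.

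Of 28 listed partner genes (ubiquitin genes, shuttle factors, assembly and regulatory factors), 4 rose (5.74% of all tested genes) and 1 fell (5.18%), with a median log2 fold change of 0.07. Pomp, the chaperone that completes the core, rose from 101, 102 and 108 FPKM in Mock to 114, 131 and 125 in Quinpirole (0.25 ± 0.06, adjusted p = 0.0399, limma). Uchl5, a deubiquitinase of the cap, rose by 0.28 (adjusted p = 0.0250), Ngly1, the cytosolic glycanase that acts on Nfe2l1, by 0.25 (adjusted p = 0.0258) and Txnl1, a thioredoxin of the cap, by 0.19 (adjusted p = 0.04095) on the log2 scale. Nfe2l1 itself fell, from 38.2, 34.4 and 39.1 FPKM in Mock to 32.1, 30.2 and 31.3 in Quinpirole (-0.25 ± 0.06, adjusted p = 0.0383, limma). All 3 Quinpirole libraries of Nfe2l1 lay below all Mock libraries, and with the length trend subtracted its adjusted p was 0.0599 and that of Pomp 0.0553, while Uchl5, Ngly1, Txnl1 and Rad23b, a shuttle factor, were called higher (2.09% of all tested genes). Nfe2l2 was at 93.9, 97.8 and 103 FPKM in Mock and 103, 102 and 103 in Quinpirole (0.07 ± 0.04, adjusted p = 0.288). The ubiquitin receptor Adrm1 (0.12, adjusted p = 0.0790) and the cap subunit Sem1 (0.14, adjusted p = 0.263) did not pass. Nfe2l1 was not called in any fit that left out 1 library, nor was Txnl1, and Pomp, Uchl5 and Ngly1 were each called in 1 of the 6.

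Of 11 genes of MHC class I presentation and interferon signalling 0 were called (limma, 4 at an unadjusted p under 0.05 in either direction, as were 31.3% of all tested genes), with a median log2 fold change of 0.00. The peptide transporter Tap1 (0.18, adjusted p = 0.0894) and B2m, the light chain of class I molecules (0.20, adjusted p = 0.102), were higher in every Quinpirole library, whereas Nlrc5, an activator of class I genes (-0.29, adjusted p = 0.0895), was lower in every one.

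The libraries held an estimated 22300000 to 27600000 fragments each, so that counting error is small for the core and cap genes, and the summed FPKM was 401769 to 413730 in Mock and 425244 to 437164 in Quinpirole. Of 10 astrocyte markers 9 were detected, while Gjb6 was below 0.5 FPKM throughout. Their sum was 1435 to 1599 FPKM in Mock and 1436 to 1463 in Quinpirole, and 2 of them were called lower and lay below Mock in every Quinpirole library: Slc1a2, a glutamate transporter (8.10 ± 0.562 against 5.82 ± 0.619 FPKM, SD, n = 3, limma adjusted p = 0.0297), and Atp1b2 (178 ± 2.94 against 156 ± 7.225 FPKM, adjusted p = 0.0382). Summed markers of microglia were 862 to 928 FPKM in Mock and 916 to 1009 in Quinpirole over 10 genes, none of them near 0, with Cx3cr1, Csf1r and Itgam lower in every Quinpirole library. Summed neuronal markers were 70.8 to 76.2 and 82.7 to 89.3 FPKM, almost all from Stmn2 and Tubb3, with Snap25, Rbfox3, Gad1 and Slc17a7 below 0.5. Endothelial markers summed to 47.5 to 48.8 and 46.5 to 49.9 FPKM, almost all from Slco1a4 (mean 45.6 FPKM). Oligodendrocyte markers summed to 158 to 178 and 165 to 176 FPKM, almost all from Cnp (mean 161 FPKM). Pecam1, Ly6c1, Esam and Tek of the endothelial list and Mog, Mag and Mobp of the oligodendrocyte list were below 0.5 throughout. The part of these cells in the proteasome result was not tested, and in bulk libraries fewer cells of a type cannot be told apart from less RNA per cell.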

How the data were processed

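RNA was sequenced by the study from astrocytes of 3 Mock and 3 Quinpirole preparations, as paired-end reads from poly(A)-selected libraries (NEBNext Ultra). The authors trimmed the reads, mapped them with TopHat2, kept reads with at most 1 mismatch, and deposited a table of FPKM per gene for each library. GRCm38 and TopHat2 are named in the submitters' processing notes, and the program and annotation behind FPKM are not given in the sources used here. No counts came with the FPKM values, so sequencing depth was inferred from 1254 genes, for which 58 to 66.7% of low values lay within 0.1 of a whole fragment. That share was too low for a count test.

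Gene identifiers were matched to symbols (17090 of 17193), and exonic lengths and positions came from GENCODE M21 on GRCm38. The 12255 genes with a mean of at least 1 FPKM were tested as log2(FPKM + 1) by moderated linear models in limma 3.58.1 (R 4.3.3; eBayes, trend on), over all 6 libraries with no covariate. Tests were two-sided, and p was adjusted after Benjamini and Hochberg with 0.05 as the threshold. Fold changes on this scale understate those of weakly expressed genes. For the length correction, the deviation of each log2 value from the mean of its gene was fitted on log2 exonic length. This loess curve (span 0.3) was fitted in each library and subtracted from the log2 values. Ratios of an immunoproteasome gene to its constitutive counterpart were compared by exact permutation tests in Python 3.11.15 with scipy 1.17.1. Genes sharing transcript words of 50 bases with another gene were marked. Scripts were tested on simulated data.

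Active-site and immunoproteasome genes and, in each other role, the genes with the smallest and the largest p are given in full, and Psmd8 beside them was chosen after its values were seen. Of the partner genes, those past the threshold are named together with Nfe2l1, Nfe2l2, Pomp, Adrm1 and Sem1. The genes, lists and tests were chosen with earlier results of these data known. Alternatives were another pseudocount (0.1), other filters, quantile and median ratio scaling, eBayes without trend, length and GC correction, a replicate block, and leaving out each library. Some listed genes are not reported here.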

Additional observations from a re-analysis of the deposited data

How the results depend on the processing

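The direction of the proteasome change held more widely than its calls. The main fit called 14 proteasome genes, all higher, among 1339 called genes in either direction. No filter on low values gave 9 among 633, quantile normalization 5 among 781 and eBayes without trend 5 among 714. Length correction gave 3 among 509, and length and GC content correction 2 among 375. As shares called higher, proteasome genes against all tested genes, these 5 fits gave 18% against 1.91%, 10.4% against 2.30%, 10.4% against 2.39%, 6.25% against 2.09% and 4.17% against 1.53%. Same-numbered libraries of the 2 groups did not deviate together (correlations 0.026, -0.066 and -0.103), so the numbers were not treated as pairs. With the replicate block the counts were 0 of 2, and with length correction added 0 of 0 (limma; 26 and 19 proteasome genes, and 3308 and 2723 genes in all, at an unadjusted p under 0.05). Leaving out 1 library gave 0 to 16 proteasome genes and 3 to 1182 genes in all, the fewest without Mock 2. A pseudocount of 0.1 and median ratio scaling gave 13 each, and a mean of at least 5 FPKM gave 16. No proteasome gene was called lower in any fit. The causes were not tested, though leaving out a library leaves fewer samples. The median log2 fold change went from 0.19 to 0.12 under quantile normalization, 0.10 under length correction and 0.10 under length and GC correction in the core, and from 0.16 to 0.10, 0.11 and 0.11 in the cap. The log2 difference of Psmb8 relative to Psmb5 went from -0.17 to -0.063 under quantile normalization, -0.080 under length correction and -0.10 under length and GC correction, and ran from -0.20 to -0.14 with 1 library left out. That of Psmb9 relative to Psmb6 went from 0.12 to 0.27 under quantile normalization (exact permutation p = 0.1) and 0.069 on log2(FPKM + 1), and ran from 0.041 to 0.20 with 1 library left out, the extremes being without Quinpirole 3 and Quinpirole 1. The log2 difference of Psmb10 relative to Psmb7, near 0, became 0.058 under quantile normalization and 0.029 under length and GC correction, and ran from -0.050 to 0.045 with 1 library left out. Of 767 refits of single proteasome genes 27 changed sign, all of genes that were not called. Under quantile normalization these were Psmb6 (-0.0070), Psmc3 (-6.2e-05), Psmd2 (-0.0072), Psmd3 (-0.00060), Psme3 (-0.0023) and Psmg3 (-0.00046), and under median ratio scaling Psmg3 (-0.00079). Under length correction, alone and with the block, they were Psma5 (-0.018), Psmb6 (-0.0078), Psmc3ip (-0.029), Psme3 (-0.030) and Psmg3 (-0.056), and under length and GC correction Psma5 (-0.021), Psmc3ip (-0.029), Psme3 (-0.030) and Psmg3 (-0.052). With 1 library left out the log2 fold change ran from -0.067 to 0.011 for Psmb8, from -0.0047 to 0.068 for Psme3 and from -0.036 to 0.071 for Psmg3. FPKM carry no counts, so depth limits could be estimated only, and 3 libraries against 3 cannot give an exact permutation p below 0.1.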
